A study of Mus musculus with 12 samples.

Results

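The comparison described here is between the colons of mice given dextran sulfate sodium (DSS) together with dexamethasone (DXM+DSS, 3 libraries) and the colons of mice given DSS alone (DSS, 3 libraries). These are 6 of the 12 RNA-Seq libraries of the series, chosen by their treatment labels, and the differences were described across all genes. All mice were male, wild-type C57BL/6J animals, 5 weeks old, and each library came from a piece of whole colon. DSS was drunk in place of water in both groups, and DXM was given at 4 mg/kg, with its route and number of days not given in the sources used here. The other 6 libraries, 3 of untreated control mice and 3 of mice given rhynchophylline and DSS (Rhy+DSS), entered the fit to estimate the spread, and their levels are given where they bear on a result. The libraries are called DSS 1, 2 and 3 and DXM 1, 2 and 3 below. The labels do not say that each library came from a different mouse, so p-values measure the spread between these libraries.

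DSS strips the colonic epithelium and gives an acute colitis with ulcers, infiltrating white cells and later repair by the stroma. Dexamethasone is a synthetic glucocorticoid that binds the glucocorticoid receptor (Nr3c1). The receptor then binds palindromic response elements in DNA and raises genes such as Fkbp5, Tsc22d3 and Per1, while it restrains many cytokine genes. In the distal colon, corticosteroids also raise the subunits of the epithelial sodium channel.

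Levels are given as CPM, a gene's counts scaled to the total of its library. Total counts ran from 15544386 to 17749716 per library. DSS 1 and DSS 2 were nearly the same library: their dispersion (squared coefficient of variation beyond counting noise) was 0.00201, against 0.0604 to 0.220 for the other 14 pairs among the 6 libraries. They still differed by 1.91 times the variance that counting alone gives, so they were kept apart, and counts were also made with both summed into 1 library. Hoxb13, a marker of the distal end of the colon, lay at 226, 205 and 1.49 CPM in DSS 1 to 3 and at 221, 195 and 236 CPM in DXM 1 to 3. DSS 3 was thus the only one of the 6 with almost no Hoxb13, and its part in a result is shown by the values without it. Mitochondrial genes took 25.7% of the counts in DXM 1, 7.48 to 7.88% in DXM 2 and DXM 3 and 11.1 to 14% in the DSS libraries. The labelled tissue was checked with Epcam, a surface protein of epithelial cells, at 1553, 1560.2 and 1673 CPM and 1672, 1278 and 1144 CPM, and with the muscle genes given later.

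The quasi-likelihood test of edgeR covered 16904 genes and placed 0 of them under 0.05 after adjustment, the smallest value being 0.622. Before adjustment 1300 genes lay under 0.05, 7.69% of the total, where 845.2 would fall by chance alone, with 827 (4.89%) higher and 473 (2.8%) lower in DXM+DSS. With DSS 1 and DSS 2 summed, 736 of 17346 genes (4.24%) had such a p and 0 an adjusted p under 0.05. That is fewer than the 845.2 that chance alone gives for 16904 genes, so the excess was not seen with the 2 summed. DESeq2 called 53 genes at an adjusted p under 0.05 on all 12 libraries, 589 on the 6 libraries alone and 172 with DSS 1 and DSS 2 summed. Every gene below is therefore described as higher or lower by its levels and its unadjusted p, and not as changed. The 3 DXM+DSS libraries all lay above the 3 DSS libraries for 10.4% of genes and all below for 12.2%, which is the background for the counts of gene groups. Log2 fold changes were above 0 for 48.5% of genes and below 0 for 51.5%. With DSS 1 and DSS 2 summed, 2.75% of genes were higher and 1.49% lower at an unadjusted p under 0.05. Without DSS 3 the share at that p was 5.23% (3.54% higher and 1.68% lower), and with a term for low Hoxb13 in the fit it was 6.08% (3.8% higher and 2.28% lower). The fit without DSS 3 leaves DSS 1 and DSS 2, nearly the same library, as the whole DSS group. Its p-values, here and below, therefore hold almost no spread between DSS colons. At the same p, 741, 1021 and 383 genes were higher without DXM 1, DXM 2 or DXM 3, in that order. Those lower were 676, 573 and 154, of 17338, 17330 and 17287 genes tested. Without DSS 1 or DSS 2, 519 and 499 were higher and 256 and 272 lower, of 17342 and 17371. These are the background for counts with a library left out. Unless another p is named, p under 0.05 means unadjusted in the counts below, and every gene named below had an adjusted p of 0.622 or more, printed for those the results turn on. A gene near 0 in DSS can pass the filter on low counts only through other libraries. Counts of higher genes in a list with such members can therefore lean upward.

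Fkbp5, Tsc22d3, Per1, Zbtb16 and Sgk1, genes that glucocorticoids are well known to raise, did not pass p under 0.05 in the DXM+DSS colons. Fkbp5, a co-chaperone of the receptor and among its most widely used targets, lay at 198, 194 and 295 CPM in DSS 1 to 3 and at 147, 193 and 107 CPM in DXM 1 to 3, all of the latter below the former. Its log2 fold change was -0.63 ± 0.43 (SE), with adjusted p = 0.725. Tsc22d3 (GILZ), a leucine zipper protein that mediates part of the anti-inflammatory action, lay at 94.5, 94.4 and 73.8 CPM and at 69.9, 73 and 65.4 CPM, again without overlap and lower with DXM (log2 fold change -0.33 ± 0.22 (SE), adjusted p = 0.713). Per1, a clock gene that the receptor raises directly, lay higher in all 3 DXM libraries, at 51.7, 56.4 and 71.4 CPM against 47.3, 47.6 and 42.5 CPM. The difference was small, 0.39 ± 0.22 (SE) on the log2 scale with adjusted p = 0.684, and the controls lay at 95.1, 79.6 and 77.5 CPM, above both groups. Zbtb16, a zinc finger repressor, had a log2 fold change of -0.70 ± 0.52 (SE) and Sgk1, the kinase that keeps sodium channels in the membrane, one of -0.20 ± 0.44 (SE), with adjusted p of 0.736 and 0.931. The receptor gene itself, Nr3c1, lay at 83.2, 80.2 and 101 CPM with DSS and 63.8, 67.9 and 57.1 CPM with DXM+DSS (log2 fold change -0.49 ± 0.37 (SE), adjusted p = 0.747).

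All 28 genes of the list of glucocorticoid-induced genes were tested, and 15 had a log2 fold change above 0, with a median of 0.064 against -0.015 for all genes. Tgm2 and Dusp1 were higher at p under 0.05 and Fam107a lower. Dusp1, a phosphatase that switches off stress kinases, lay at 31.3, 31.7 and 29.5 CPM and at 70.6, 30.1 and 132 CPM, with DXM 2 inside the DSS range. At the ends of the list stood Mt2, a metallothionein (1.64 ± 0.78 (SE), 1.05, 0.728 and 0.715 against 5.69, 1.21 and 1.01 CPM), and Pdk4, a kinase that blocks glucose oxidation (-1.86 ± 1.03 (SE), 12, 11.3 and 47.5 against 9.12, 6.84 and 3.65 CPM). The DXM libraries lay all above for 2 of the 28 genes and all below for 6, and with DSS 1 and DSS 2 summed 1 gene was higher and 2 were lower at p under 0.05. These counts were 1 and 2 without DSS 1 or DXM 1, 1 and 1 without DSS 2 and 3 and 1 without DXM 2. Per1 and Il1r2, a decoy receptor of interleukin 1, were the 2 genes with all DXM libraries above.

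**Figure D1:**
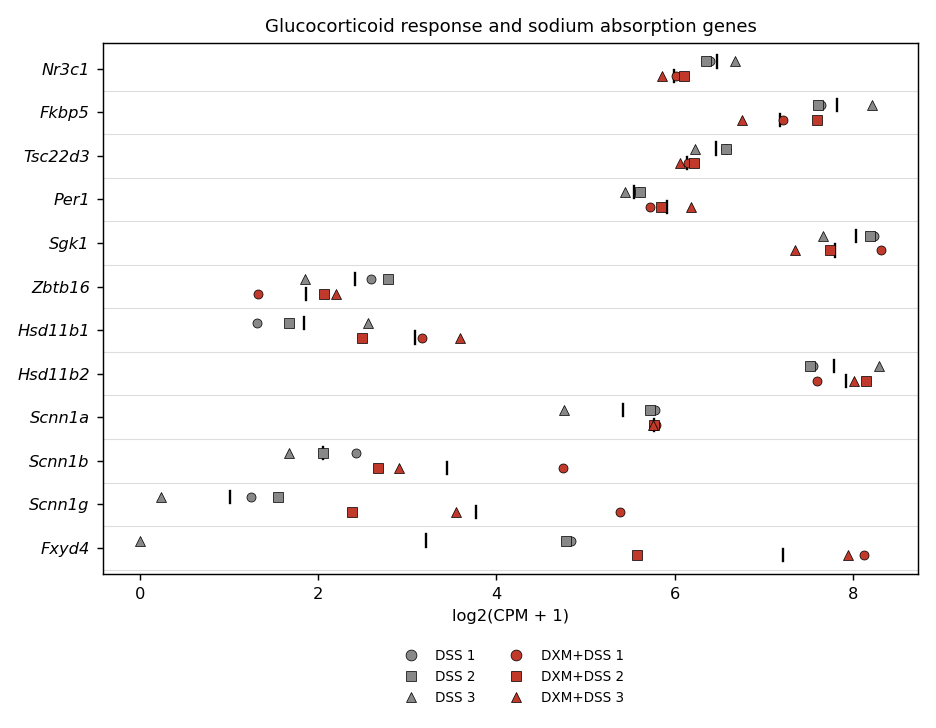
Levels as log2(CPM + 1) of 12 glucocorticoid response and sodium absorption genes in DSS (grey) and DXM+DSS (red) libraries, with symbols for replicates 1, 2 and 3 and black bars for group means. Fkbp5, Tsc22d3 and Nr3c1 lie lower in all 3 DXM+DSS libraries, and Scnn1b, Scnn1g and Fxyd4 lie higher in all 3.

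Because the drug acts through DNA elements, promoter windows of RefSeq (GRCm38.p6, 250 bases before to 50 after the start of transcription) were searched on both strands for the letters GNACANNNTGTNC, a strict glucocorticoid response element. It was found in 5 of the 23 listed glucocorticoid-induced genes that have a window, 21.7%, against 0.537% of 27025 genes with a window and 0.418% of those tested. The 5 were Fam107a, Map3k6, Mt1, Sgk1 and Txnip. In the same search, 3 motifs were looked for in 4 lists. Smooth muscle and sodium absorption genes held the element in 0 of 19 and 0 of 8 genes, and immediate early genes in 1 of 17 (Jund). The serum response element known as the CArG box was in 1 of 23 glucocorticoid-induced, 2 of 19 smooth muscle, 1 of 17 immediate early and 0 of 8 sodium genes (1.81% of all genes). The cyclic AMP response element TGACGTCA was in 2, 0, 2 and 0 of them (2.03% of all genes). Fkbp5, Tsc22d3, Per1 and Nr4a1 have windows, and these held no match to the first element. Bases outside the windows were not searched, so the search cannot say that a gene lacks the element. The windows of these genes were chosen for print after the search because they carry the element: Sgk1 (chr10:21993640-21993939, plus strand), Fam107a (chr14:8309730-8310029, minus strand) and Mt1 (chr8:94178839-94179138, plus strand), 5′ to 3′, with the 13 matching bases in capitals. The matches begin 188, 118 and 94 bases before the start.
Sgk1: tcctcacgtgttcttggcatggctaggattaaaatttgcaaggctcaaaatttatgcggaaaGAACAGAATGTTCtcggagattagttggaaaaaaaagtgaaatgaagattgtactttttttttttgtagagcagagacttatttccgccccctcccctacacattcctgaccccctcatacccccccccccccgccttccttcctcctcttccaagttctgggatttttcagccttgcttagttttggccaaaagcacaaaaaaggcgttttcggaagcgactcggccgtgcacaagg
Fam107a: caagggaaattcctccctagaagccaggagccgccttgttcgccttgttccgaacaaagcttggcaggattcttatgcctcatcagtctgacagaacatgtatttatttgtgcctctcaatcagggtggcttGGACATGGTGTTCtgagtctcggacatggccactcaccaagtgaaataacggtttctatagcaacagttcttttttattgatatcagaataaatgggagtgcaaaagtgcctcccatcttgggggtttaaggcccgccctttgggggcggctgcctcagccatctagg
Mt1: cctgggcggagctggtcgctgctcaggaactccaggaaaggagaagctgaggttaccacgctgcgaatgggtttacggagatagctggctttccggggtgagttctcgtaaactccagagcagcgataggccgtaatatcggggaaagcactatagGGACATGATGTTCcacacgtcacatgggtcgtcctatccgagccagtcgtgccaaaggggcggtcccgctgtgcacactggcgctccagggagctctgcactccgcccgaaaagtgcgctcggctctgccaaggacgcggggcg
A match is a description of letters and not a bound site. None of the 5 genes with the element was higher in all 3 DXM libraries. Fam107a, an actin-binding protein, lay at 7.23, 8.62 and 5.3 CPM in DSS 1 to 3 and at 3.84, 3.76 and 1.77 CPM in DXM 1 to 3, all lower with DXM (log2 fold change -1.17 ± 0.36 (SE), unadjusted p under 0.05, adjusted p = 0.622). Mt1, a zinc- and copper-binding metallothionein, stood apart in DXM 1 alone, with 379, 378 and 454 CPM against 1121, 391 and 431 CPM. Map3k6, a stress kinase, and Txnip, a thioredoxin inhibitor, had log2 fold changes of 0.43 ± 0.46 (SE) and -0.39 ± 0.39 (SE), with overlapping groups.

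The beta and gamma sodium channel genes did stand higher in the DXM+DSS colons. The channel is built of 3 subunits, and the beta and gamma subunits are the ones that corticosteroids induce in rodent colon. Scnn1g, the gamma subunit (ENSMUSG00000000216, mm10 chr7:121734479-121768475), lay at 1.38, 1.94 and 0.179 CPM in DSS 1 to 3 and at 40.8, 4.19 and 10.7 CPM in DXM 1 to 3. That is a log2 fold change of 3.98 ± 1.22 (SE), 15.8-fold, with unadjusted p under 0.05, adjusted p = 0.622. It was 4.25 with DSS 1 and DSS 2 summed, 3.49 without DSS 3 and 2.66 to 4.54 with any 1 library left out. The controls held 0.749, 0.209 and 0.274 CPM. Rhy+DSS 1 to 3, without DXM, held 0, 1.96 and 5.6 CPM, the last above DXM 2. Scnn1b, the beta subunit, followed with 4.36, 3.16 and 2.2 CPM against 25.9, 5.35 and 6.48 CPM (1.95 ± 0.91 (SE), adjusted p = 0.65). Its log2 fold change ran from 0.87 to 2.31 with any 1 library left out. Rhy+DSS 1 to 3 held 0.342, 3 and 7.53 CPM of Scnn1b, the last above DXM 2 and DXM 3. Scnn1a, the alpha subunit, did not separate the groups beyond DSS 3, with 53.9, 51.6 and 26 CPM against 54.2, 53.6 and 52.9 CPM (0.29 ± 0.52 (SE), adjusted p = 0.907). DXM 1 held by far the most of both Scnn1b and Scnn1g, and DXM 2 the least of both among the 3. Fxyd4 (CHIF), a corticosteroid-induced regulator of the sodium pump, lay at 27.5, 26.6 and 0 CPM and at 278, 46.6 and 245 CPM (3.4 ± 1.75 (SE), adjusted p = 0.665), and DSS 3, the library low in Hoxb13, held none. Rhy+DSS 1 to 3 held 0, 21.9 and 123 CPM of Fxyd4, the last above DXM 2. Other members of the list lay lower. Atp1b1, the beta 1 subunit of the sodium pump, was lower in all 3 DXM libraries (-0.66 ± 0.37 (SE)), and the apical exchanger Slc9a3 had the lowest value, -1.29 ± 0.87 (SE), with DXM 2 inside the DSS range. Of the 12 sodium absorption genes, 1 was higher and 0 lower at p under 0.05 (1 and 0 with the summed library, 0 and 2 without DXM 1, 2 and 2 without DXM 2, 2 and 0 without DXM 3), and the median was -0.20.

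A pair of enzymes sets how much active glucocorticoid reaches a cell. Hsd11b1, which regenerates active hormone, lay at 1.49, 2.18 and 4.88 CPM with DSS and 7.95, 4.63 and 11 CPM with DXM+DSS (1.46 ± 0.55 (SE), unadjusted p under 0.05, adjusted p = 0.637, 1.24 with the summed library), with DXM 2 just below DSS 3. Hsd11b2, which inactivates it, lay at 186, 181 and 311 CPM and 193, 282 and 257 CPM (0.11 ± 0.27 (SE)), and its small difference turned to -0.022 with the summed library. In the list of the receptor and steroid handling genes, 2 of 15 were higher at p under 0.05, Hsd11b1 and the efflux pump Abcb1b (1 with the summed library, 0 without DSS 1, 1 without DSS 2 or DXM 3). The list had 18 genes before the filter on low counts.

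Many genes of connective tissue lay higher in the DXM+DSS colons, with counts at p under 0.05 well above the 4.89% of all genes. Pi16, a peptidase inhibitor that marks fibroblasts around vessels (ENSMUSG00000024011, chr17:29318877-29329413), had the highest log2 fold change of the genes chosen by the naming rule. It lay at 0.11, 0.243 and 0.834 CPM in DSS 1 to 3 and at 16.1, 2.65 and 21.7 CPM in DXM 1 to 3, a log2 fold change of 5.07 ± 1.3 (SE) with unadjusted p under 0.05, adjusted p = 0.622. The naming rule required groups that do not overlap and one direction in the alternative fits, so neither is a finding. The size of the difference was 4.83 with DSS 1 and DSS 2 summed and 6.22 without DSS 3. Without DXM, Rhy+DSS 1 to 3 held 0.257, 5.16 and 15.2 CPM of Pi16, so a higher level was not particular to DXM. Of 17 fibroblast genes tested, 11 were higher and 0 lower at p under 0.05, 9 with the summed library and 8 without DXM 3, and the median was 0.90. Pi16 is among the 11, although it could not pass the filter on low counts through the DSS libraries alone. Pdgfra and Pdgfrb, growth factor receptors of stromal cells, had log2 fold changes of 0.77 ± 0.41 (SE) (adjusted p = 0.669) and 0.90 ± 0.34 (SE) (unadjusted p under 0.05, adjusted p = 0.637), and Dpt, a matrix protein of fibroblasts, one of 1.18 ± 0.37 (SE) (unadjusted p under 0.05, adjusted p = 0.622). Pdgfra lay at 21, 20.1 and 26.7 CPM and at 36.7, 39.1 and 39.9 CPM, close together within each group. The lowest member was Ly6a, an antigen shared by stromal, lymphoid and inflamed epithelial cells, at -0.69 ± 0.93 (SE) with overlapping groups. In pieces of whole tissue, more cells of a type and more RNA per cell cannot be told apart.

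Collagens showed the same pattern, with 21 of 22 above 0, 13 higher and 0 lower at p under 0.05, and 17 with all DXM libraries above all DSS libraries (10.4% of all genes). Their median was 1.07, and it stayed between 0.88 and 1.27 with any 1 library left out. The count of 13 was 8 with DSS 1 and DSS 2 summed, 8 without DSS 2, 3 without DSS 3, 5 without DXM 1, 4 without DXM 3 and 15 without DXM 2. Col1a1, the alpha 1 chain of type I collagen, lay at 84.2, 79.8 and 58.9 CPM and at 169.8, 99.6 and 205 CPM (1.09 ± 0.45 (SE), unadjusted p under 0.05, adjusted p = 0.637). Col3a1, the chain of type III collagen in reticular fibres, lay at 236, 238 and 184 CPM and at 509, 371 and 828 CPM (1.38 ± 0.48 (SE), unadjusted p under 0.05, adjusted p = 0.622). Controls held 463, 231 and 313 CPM of Col3a1, so that DXM 2 lay within the range of untreated colon and DXM 1 and DXM 3 above it. Col14a1, a collagen that sits on the surface of fibrils, differed most, with 3.31, 3.7 and 4.29 CPM against 30.4, 7.62 and 42 CPM (2.82 ± 0.70 (SE), unadjusted p under 0.05, adjusted p = 0.622). Rhy+DSS 1 to 3, without DXM, held 163, 440 and 768 CPM of Col3a1 and 3.34, 17.5 and 28.3 CPM of Col14a1. Both genes were thus also high in Rhy+DSS 2 and 3. Col11a1, a minor fibril chain, was the one collagen below 0 (-0.78 ± 0.84 (SE)).

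Of 37 matrix glycoprotein and elastic fibre genes, 35 were above 0 and 23 were higher at p under 0.05, with 0 lower. The count was 14 with the summed library, 15 without DSS 1 or DSS 2, 16 without DSS 3 and 12 without DXM 3. Mfap5, a microfibril protein, stood highest, with 0.552, 0.728 and 1.85 CPM and 23.5, 3.13 and 18 CPM (3.82 ± 0.99 (SE), unadjusted p under 0.05, adjusted p = 0.622). Rhy+DSS 1 to 3 held 0.599, 9.14 and 13.3 CPM of Mfap5. Eln, which encodes elastin, lay at 19, 22.1 and 12 CPM and at 87.1, 26.2 and 84.3 CPM (1.89 ± 0.58 (SE), unadjusted p under 0.05, adjusted p = 0.622). Fbn1, the fibrillin of the same fibres, had a log2 fold change of 1.35 ± 0.36 (SE) (unadjusted p under 0.05, adjusted p = 0.622) and Fn1, fibronectin, one of 0.91 ± 0.46 (SE) (adjusted p = 0.662). Fbn2, the fibrillin of the embryo, was the lowest at -0.49 ± 0.39 (SE). In each of Mfap5, Eln and Fbn1, DXM 2 lay nearest to the DSS libraries and DXM 1 and DXM 3 far above. Among 10 proteoglycans, 7 were higher and 0 lower at p under 0.05 (4 with the summed library and 4 without DSS 1, DSS 2 or DXM 3), led by Dcn, decorin, a small proteoglycan that binds collagen fibrils. Dcn lay at 64.4, 65.6 and 71.2 CPM and at 236, 126 and 335 CPM (1.79 ± 0.53 (SE), unadjusted p under 0.05, adjusted p = 0.622), and here DXM 2 too was well separated. Lum, lumican, was at 1.74 ± 0.46 (SE), Bgn, biglycan, at 0.88 ± 0.38 (SE), and Fmod, fibromodulin, lowest at -0.46 ± 0.76 (SE).

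Among enzymes that mature collagen, 12 of 20 were higher and 0 lower at p under 0.05 (10 with the summed library, 7 without DSS 3 and 7 without DXM 3). The prolyl hydroxylases P4ha1 and P4ha2 had log2 fold changes of 0.24 ± 0.24 (SE) and 0.88 ± 0.34 (SE), and P4ha3 was lowest at -0.17 ± 0.62 (SE). Pcolce2, an enhancer of procollagen cleavage, had the highest value of the list, but it rested on at most a few reads in DSS, so no fold is given, with 0, 0 and 0.119 CPM and 3.22, 0.0964 and 2.43 CPM. The 20 genes include Pcolce2, which could not pass the filter on low counts through the DSS libraries. Metalloproteinases and their inhibitors were higher for 6 of 18 genes (2 with the summed library, 3 without DSS 1, 2 without DSS 2, DSS 3 or DXM 1 and 1 without DXM 3). Mmp2, the gelatinase of fibroblasts, lay at 19.2, 22.1 and 25.3 CPM and at 54.7, 34.2 and 52.1 CPM (1.08 ± 0.49 (SE), unadjusted p under 0.05, adjusted p = 0.646). Mmp9, the gelatinase of neutrophils, lay at 0.882, 0.91 and 0.596 CPM and at 1.85, 1.11 and 1.62 CPM (0.93 ± 0.78 (SE), adjusted p = 0.765). Mmp12, of macrophages, and Mmp28, of epithelium, stood at the ends with 1.86 ± 0.78 (SE) and -0.56 ± 0.54 (SE), the former at no more than 1.01 CPM.

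**Figure D2:**
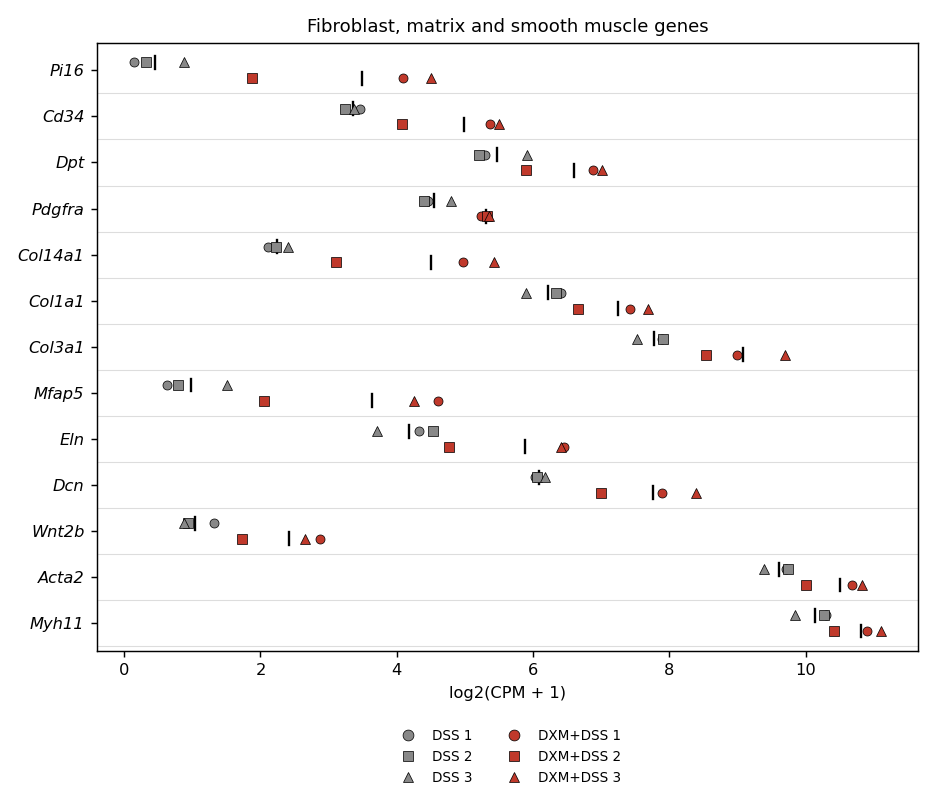
Levels as log2(CPM + 1) of 13 fibroblast, matrix and smooth muscle genes in DSS (grey) and DXM+DSS (red) libraries, with symbols for replicates and black bars for group means. The DXM+DSS libraries lie to the right of the DSS libraries in 12 of the 13, with Dpt the gene in which DXM 2 falls within the DSS range, and DXM 2 (square) is usually the closest to DSS.

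Among growth signals of the stroma, 17 of 40 genes were higher and 1 lower at p under 0.05, with 11 higher under the summed library, 11 without DSS 2 or DXM 1 and 9 without DXM 3. The number lower was 0 without DSS 1 and 3 without DXM 1. The ligand genes Tgfb1 and Tgfb2 differed little (0.16 ± 0.34 (SE) and 0.38 ± 0.25 (SE)), and Tgfb3 was at 1.88 ± 0.62 (SE) (unadjusted p under 0.05, adjusted p = 0.622), with 3.86, 3.64 and 4.53 CPM and 21.5, 3.81 and 19 CPM, so that DXM 2 lay at the DSS level. Fst, follistatin, which neutralises activin, was the 1 gene lower at p under 0.05, with 9.32, 6.43 and 6.2 CPM and 2.95, 4.00 and 3.09 CPM (-1.13 ± 0.39 (SE), unadjusted p under 0.05, adjusted p = 0.622).

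Smooth muscle genes were all above 0, 23 of 23, by smaller amounts. Their median was 0.64, and 8 were higher and 0 lower at p under 0.05. Acta2, smooth muscle actin, lay at 837, 856 and 666 CPM in DSS 1 to 3 and at 1641, 1025 and 1808 CPM in DXM 1 to 3 (0.92 ± 0.31 (SE), unadjusted p under 0.05, adjusted p = 0.622). Myh11, the smooth muscle myosin heavy chain, lay at 1265, 1228 and 916 CPM and at 1909, 1372 and 2206 CPM (0.69 ± 0.24 (SE), unadjusted p under 0.05, adjusted p = 0.622), with controls at 1057, 1029.5 and 962 CPM. Myocd, the coactivator that drives the muscle programme, was highest at 1.39 ± 0.71 (SE) (adjusted p = 0.664), and Ldb3, a Z-line protein, lowest at 0.023 ± 0.31 (SE) (-0.076 with the summed library). The count of 8 was 6 with the summed library, 4 without DSS 3, 2 without DXM 3 and 17 without DXM 2. Genes of the blood vessel lining were above 0 in 14 of 14, 5 of them at p under 0.05 (4 with the summed library, 2 without DXM 1 and 11 without DXM 2). Pecam1, Cdh5 and Kdr, an adhesion molecule, a junctional cadherin and a receptor of vascular growth factor, were at 0.62 ± 0.36 (SE), 0.85 ± 0.39 (SE) and 0.78 ± 0.44 (SE). Cldn5, the claudin of endothelium, was highest with 3.03, 2.79 and 4.35 CPM against 21.3, 4.19 and 11.1 CPM (1.84 ± 0.62 (SE), unadjusted p under 0.05, adjusted p = 0.622), and Flt1 lowest (0.58 ± 0.50 (SE)). Of 6 lymphatic genes, 4 were higher at p under 0.05 (3 with the summed library and 2 without DSS 2, DSS 3, DXM 1 or DXM 3). They included Lyve1, a hyaluronan receptor of lymphatic vessels and of some macrophages, at 5.9, 6.13 and 4.29 CPM and 27.4, 8.63 and 29.7 CPM (2.01 ± 0.53 (SE)), while Prox1, the factor that defines lymphatic fate, was at -0.079 ± 0.35 (SE).

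**Figure D3:**
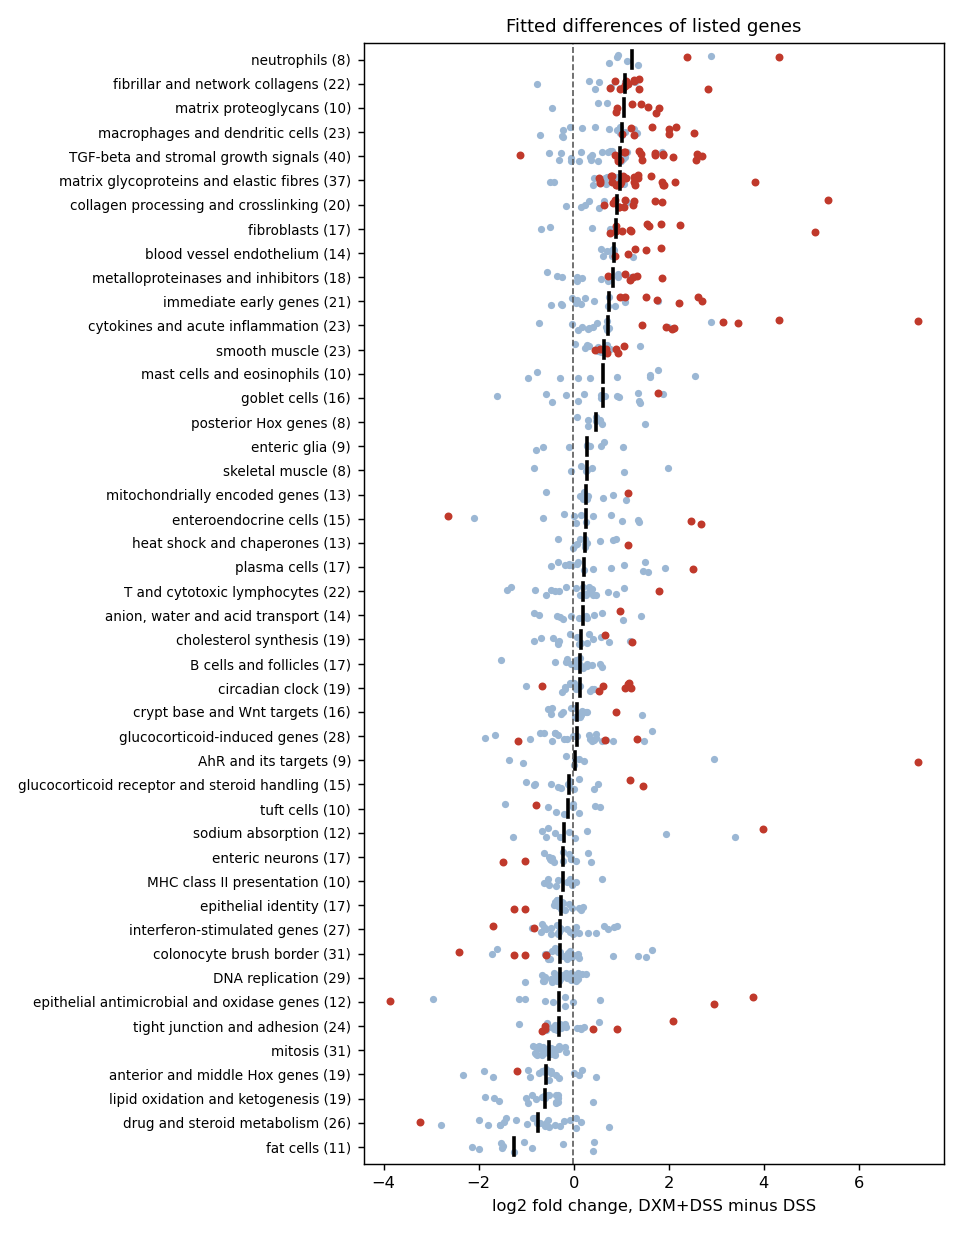
Fitted log2 fold changes of DXM+DSS over DSS for the genes that passed the filter in 46 lists with at least 8 genes tested (number in brackets), with genes at an unadjusted p under 0.05 in red, list medians as black bars and the median of all genes as a dashed line. Matrix, stromal, vessel and macrophage lists lie to the right and drug metabolism and lipid oxidation to the left; the point at 7.25 is Il22, whose fitted value depends on the prior count because the DSS libraries hold none.

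Of 35 cytokine and inflammation genes listed, 23 passed the filter on low counts, and since a gene near 0 in DSS, such as Il22, could pass only through other libraries, no count is drawn from those that passed. Ccl2, the attractant of monocytes, lay at 0.386, 0.789 and 0.417 CPM in DSS 1 to 3 and at 2.06, 4.29 and 11.3 CPM in DXM 1 to 3, with a log2 fold change of 3.46 ± 0.77 (SE), unadjusted p under 0.05, adjusted p = 0.622. Cxcl1, the attractant of neutrophils, lay at 0.772, 0.121 and 0.298 CPM and at 1.3, 3.52 and 5.98 CPM (3.15 ± 0.76 (SE), unadjusted p under 0.05, adjusted p = 0.622). The groups did not overlap for Cxcl1, a gene of the fixed set, whereas the naming rule that chose Ccl2 required this. The DSS levels of both genes were below 1 CPM, as in the controls (0.449, 0.487 and 0.22 CPM of Cxcl1). Il1b lay at 1.38, 2.31 and 0.298 CPM and at 1.99, 4.77 and 8.46 CPM (1.93 ± 0.71 (SE), unadjusted p under 0.05, adjusted p = 0.63), with DXM 1 inside the DSS range. Tnf was at 0.32 ± 0.69 (SE) (adjusted p = 0.931), a value that turned to -0.081 with a Hoxb13 term in the fit. Il6 and Mpo, the latter an enzyme of neutrophil granules, had too few reads to be tested, with at most 8 and 5 reads in any of the 6 libraries. Il22, a cytokine that acts on epithelium, had 0 reads in each DSS library and 2, 31 and 35 reads in DXM 1 to 3, at least 21.2-fold higher against a floor of 3 reads over the DSS group. Nos2, inducible nitric oxide synthase, was the lowest of the cytokine and inflammation list at -0.74 ± 0.86 (SE). The summed level of the listed genes overlapped between groups, with 1625, 1646 and 384 CPM in DSS 1 to 3 and 1749.7, 1368 and 2749 CPM in DXM 1 to 3.

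Of 23 macrophage and dendritic cell genes, 8 were higher and 0 lower at p under 0.05, and 13 had all DXM libraries above. The count of 8 was 3 with the summed library and without DSS 1, DSS 2 or DXM 3, 4 without DSS 3 and 5 without DXM 1. Csf1r, the receptor that macrophages need, lay at 10.3, 9.22 and 10.6 CPM and at 22.9, 13.8 and 23.9 CPM (1.01 ± 0.50 (SE), adjusted p = 0.661). Adgre1 (F4/80) and Cd68, a surface and a lysosomal marker, were at 1.27 ± 0.57 (SE) and 1.65 ± 0.74 (SE), with DXM 2 near the DSS level in both. Cd163, the haemoglobin scavenger receptor, was highest at 2.54 ± 0.71 (SE) but at no more than 5.49 CPM, and Mertk, a receptor for dying cells, lowest at -0.70 ± 0.45 (SE). In DSS 1 to 3, Cd163 had 6, 8 and 11 reads and Fcgr1 9, 6 and 7. Neither could pass the filter on low counts through the DSS libraries alone, so the counts of this list can lean toward higher genes. Of 15 neutrophil genes, 8 passed the filter, which a gene near 0 in DSS can do only through other libraries, so no count is drawn from them. S100a8, a subunit of calprotectin, had the highest log2 fold change of these on few reads (0 to 0.243 CPM in DSS and 0.411 to 4.66 CPM in DXM+DSS). Interferon-stimulated genes lay slightly lower, with a median of -0.28 that was 0.015 without DXM 3. Ifit2, which binds viral RNA, was lowest with 97.4, 93 and 83.8 CPM against 31.7, 42.4 and 10.1 CPM (-1.70 ± 0.64 (SE), unadjusted p under 0.05, adjusted p = 0.637). B and T cell lists had medians of 0.14 and 0.21, which turned below 0 without DXM 1 (-0.058 and -0.0088) and with a Hoxb13 term (-0.97 and -0.13), the T cell median also without DXM 3 (-0.015). Antibody segments were higher in part: 15 of 101 immunoglobulin segments had p under 0.05 and 0 were lower, 5 with the summed library and 23 without DSS 3. Igha, the constant region of the mucosal antibody, lay at 162, 163 and 1232 CPM and at 1544, 630.3 and 2136 CPM (1.47 ± 1.07 (SE), adjusted p = 0.731), DSS 3 being the library of its group that overlapped DXM, and 3.16 without DSS 3.

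Many enzymes and some transporters of mature colonocytes lay lower with DXM, none past an adjusted p of 0.05. Anion, water and acid transport genes did not share this, with 8 of 14 above 0 and a median of 0.19. Of 26 genes of drug and steroid metabolism, 22 were below 0 with a median of -0.75, and 9 had all DXM libraries below all DSS libraries (12.2% of all genes). Only Ugt1a1, which conjugates bilirubin and drugs, was lower at p under 0.05 (2 genes with the summed library and without DSS 1, DSS 2, DXM 1 or DXM 2, and 0 without DSS 3 or DXM 3), with 9.16, 7.46 and 21.6 CPM against 1.99, 1.74 and 0.355 CPM (-3.24 ± 1.15 (SE), unadjusted p under 0.05, adjusted p = 0.622). Ugt1a1 and Ugt1a6b share their last exons, so reads between them are uncertain, and Ugt1a6b was lower as well (-2.29 ± 0.98 (SE)). The naming rule, which required groups that do not overlap, chose both. Of all genes, 2.8% were lower at p under 0.05. Cyp2c55, Cyp2c65 and Cyp2c68, cytochromes of the colon, were at -1.48 ± 1.27 (SE), -1.99 ± 1.32 (SE) and 0.73 ± 0.43 (SE), the last being the highest of the list, and Cyp2c65 was below DSS in all 3 DXM libraries, at 101, 39.1 and 1.57 CPM against 154, 166 and 243 CPM. Other enzymes chosen by the naming rule were Akr1c18, which degrades progesterone (14.7, 14.4 and 9.17 CPM against 1.37, 1.45 and 0.0506 CPM, -3.74 ± 0.95 (SE), unadjusted p under 0.05, adjusted p = 0.622), and Cyp4f14, a fatty acid hydroxylase. Cyp4f14 lay at 14.7, 14.7 and 54.9 CPM with DSS, 8.71, 4.43 and 1.37 CPM with DXM+DSS and 68.4, 81.9 and 135 CPM in controls, so that the DXM+DSS libraries were the farthest from untreated colon (-2.55 ± 0.70 (SE), unadjusted p under 0.05, adjusted p = 0.622). Rhy+DSS 1 to 3, without DXM, held 6.76, 0.914 and 1.13 CPM of Akr1c18 and 21, 2.48 and 3.06 CPM of Ugt1a1. Of Cyp4f14 they held 76.9, 26.4 and 40.1 CPM. Low Akr1c18 and Ugt1a1 were thus also seen in Rhy+DSS 2 and 3. Genes of lipid oxidation and ketogenesis were below 0 in 18 of 19, with 9 entirely below and 0 at p under 0.05 (4 without DXM 1). Their median of -0.60 was -0.32 without DSS 3. Cpt1a, which admits fatty acids to mitochondria, lay at 179, 176 and 261 CPM and at 148, 104 and 55.6 CPM (-1.0 ± 0.47 (SE), adjusted p = 0.655), Cpt2 and Acadm were at -0.37 ± 0.28 (SE) and -0.34 ± 0.29 (SE), and Cd36, a fatty acid receptor also of fat and vessel cells, highest at 0.41 ± 0.62 (SE).

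Of 31 brush border genes, 4 were lower and 0 higher at p under 0.05. The count of lower genes was 4 with the summed library, 1 without DSS 3 or DXM 3 and 10 without DXM 1. Vil1 and Ezr, structural proteins of the microvillus, and Myo1a, its motor, were at -0.23 ± 0.24 (SE), -0.036 ± 0.23 (SE) and 0.08 ± 0.26 (SE). Slc3a1, a partner of amino acid exchangers, was lowest with 15.9, 13.2 and 32.8 CPM against 5.76, 5.4 and 0.506 CPM (-2.41 ± 0.87 (SE), unadjusted p under 0.05, adjusted p = 0.622), and Sis, sucrase-isomaltase, stood highest through DXM 1 alone (1.17, 0.0482 and 0.0506 CPM in DXM 1 to 3). Slc13a1, a sulfate transporter, lay at 17, 19.4 and 27.4 CPM and at 2.95, 8.39 and 0.962 CPM (-2.36 ± 0.79 (SE), unadjusted p under 0.05, adjusted p = 0.622). The naming rule chose Slc3a1 and Slc13a1 and required groups that do not overlap, so their separation is not a finding. Among epithelial identity genes, Epcam, Cdh1 and Krt8 were at -0.23 ± 0.21 (SE), -0.18 ± 0.20 (SE) and -0.028 ± 0.26 (SE). Cdx2, the homeobox factor of intestinal fate, was lowest with 233, 224 and 391 CPM against 158, 139 and 56.5 CPM (-1.26 ± 0.58 (SE), unadjusted p under 0.05, adjusted p = 0.646), and Lgals4 highest (0.19 ± 0.28 (SE)).

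The regenerating lectins split. Reg3g, a bactericidal lectin that inflamed epithelium secretes, lay at 1298, 1348 and 256 CPM in DSS 1 to 3 and at 27.2, 171 and 1.37 CPM in DXM 1 to 3 (-3.86 ± 1.52 (SE), unadjusted p under 0.05, adjusted p = 0.637). Reg3b, its neighbour, lay at 4737, 4829 and 1116 CPM and at 103, 1276 and 1.98 CPM (-2.95 ± 1.71 (SE), adjusted p = 0.684), where DXM 2 exceeded DSS 3. The DXM libraries were widely spread in both, and controls held 30.2, 7.58 and 21.6 CPM of Reg3g, above DXM 3 and below DXM 2. Reg4, a lectin of secretory cells, was higher with DXM, with 37.9, 35.7 and 26 CPM against 159, 237 and 375 CPM (2.95 ± 1.13 (SE), unadjusted p under 0.05, adjusted p = 0.637). The naming rule chose Reg3g and Reg4 and required groups that do not overlap, so their separation is not a finding. In the Rhy+DSS libraries Reg4 was at 2.83, 229.9 and 537 CPM and Reg3g at 12, 23.1 and 311 CPM. The oxidase Duox2 was at -1.03 ± 0.52 (SE) (adjusted p = 0.662). Of 16 goblet cell genes, 1 was higher at p under 0.05 (0 with the summed library and without DSS 1, DSS 2, DXM 2 or DXM 3, and 2 without DSS 3) and 7 had all DXM libraries above. Fcgbp and Clca1, a mucus protein and a mucus protease, lay at 713, 729 and 842 CPM against 1299, 1446 and 1548 CPM and at 502, 497 and 476 CPM against 1339.7, 1759 and 2344 CPM (0.91 ± 0.82 (SE), adjusted p = 0.784, and 1.88 ± 0.91 (SE), adjusted p = 0.658). Muc2, the gel-forming mucin, differed between DSS 3 and the other DSS libraries, at 1012, 1037 and 4528 CPM against 903, 2537 and 1362 CPM (-0.45 ± 0.87 (SE)), and its sign turned without DSS 3 (0.66). B3gnt6, a glycosyltransferase of mucins, was lowest of the list (-1.62 ± 1.34 (SE)).

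Hormone cells also split by hormone. Sst, somatostatin of D cells, lay at 88.2, 84.6 and 124 CPM and at 11.5, 27.4 and 8.66 CPM (-2.64 ± 0.98 (SE), unadjusted p under 0.05, adjusted p = 0.637). It was chosen by the naming rule, which required groups that do not overlap. Insl5, of distal L cells, lay at 27.1, 29.7 and 8.76 CPM and at 101, 141 and 179.5 CPM (2.68 ± 1.17 (SE), unadjusted p under 0.05, adjusted p = 0.642), and Chga and Gcg were at -0.20 ± 0.48 (SE) and 1.36 ± 0.88 (SE). Ntrk2, the receptor of a brain-derived growth factor, lay at 9.1, 11.3 and 17.3 CPM and at 0.754, 2.6 and 0.506 CPM (-3.26 ± 1.38 (SE), unadjusted p under 0.05, adjusted p = 0.637), and the controls, at 0.225, 3.2 and 16.1 CPM, spanned both groups. Krt84, a hair-type keratin, Plscr2, a scramblase, and Nrep, a protein first known from regenerating neurons, completed the lower genes. Krt84 lay at 13.7, 11.9 and 31.4 CPM and at 0.891, 4.29 and 3.49 CPM (-2.70 ± 1.08 (SE)), Plscr2 at 55.4, 63.3 and 39.9 CPM and at 8.09, 20.6 and 2.28 CPM (-2.35 ± 0.93 (SE)) and Nrep at 28.7, 29.2 and 43.7 CPM and at 10.8, 8.77 and 4.76 CPM (-2.07 ± 0.71 (SE)). Rhy+DSS 1 to 3 held 11.8, 0.457 and 0.453 CPM of Ntrk2 and 25.7, 2.81 and 3.23 CPM of Krt84. They held 134, 25.3 and 5.49 CPM of Plscr2, 56.1, 9.4 and 6.68 CPM of Nrep and 247, 42 and 4.47 CPM of Sst. Low levels of these genes were thus also seen without DXM. Sycn, a granule protein best known from the pancreas, lay at 169.9, 184 and 29.8 CPM and at 2427, 209.8 and 1886 CPM (3.56 ± 1.22 (SE), unadjusted p under 0.05, adjusted p = 0.622). DXM 2 lay close to DSS 2, and of 12 pancreatic acinar markers just Cela1 passed the filter on low counts (0.47 ± 0.40 (SE)).

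**Figure D4:**
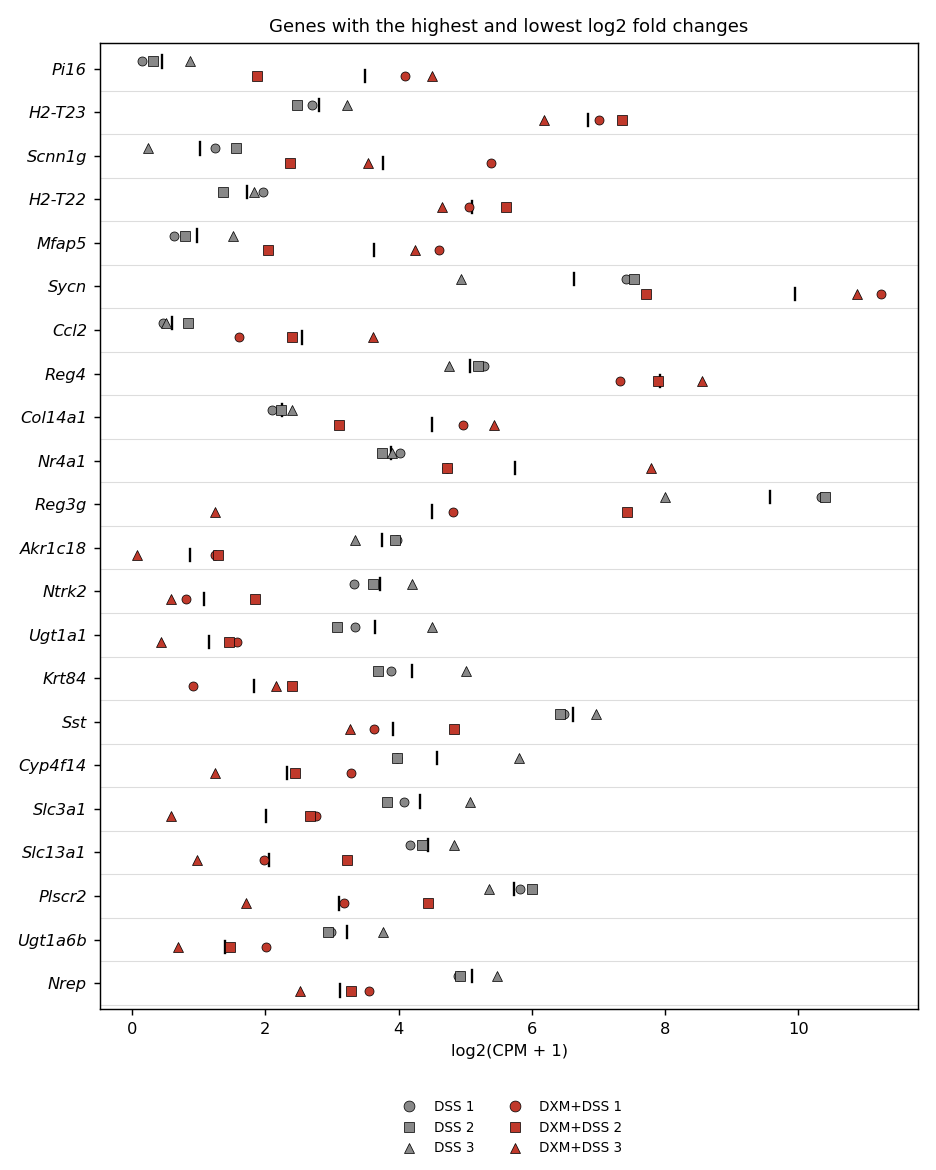
Levels as log2(CPM + 1) of 10 of the 12 genes with the highest and the 12 with the lowest log2 fold change under the naming rule, in DSS (grey) and DXM+DSS (red) libraries, with symbols for replicates and black bars for group means. The rule required groups that do not overlap, so their separation is not a finding. In Nr4a1 DXM 3 (triangle) stands apart, and in Reg3g the DXM libraries run from 1.37 to 171 CPM.

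Mitosis genes lay below 0 together, none of them past the test. Of 31 genes, 31 had a log2 fold change below 0 and 0 an unadjusted p under 0.05, with a median of -0.51. Mki67, the antigen of cycling cells, lay at 131, 141 and 86.9 CPM and at 53.4, 159 and 76.3 CPM (-0.31 ± 0.47 (SE), adjusted p = 0.882), Top2a and Cdk1 were at -0.81 ± 0.50 (SE) and -0.73 ± 0.40 (SE), and Prc1 and Plk1 stood at the ends (-0.85 ± 0.50 (SE) and -0.15 ± 0.40 (SE)). Without DXM 2, 20 of the 31 were lower at p under 0.05, against 573 of all 17330 genes tested in that fit. In DNA replication 23 of 29 were below 0 and 0 had p under 0.05 (3 without DXM 2), with Mcm2, Mcm3 and Mcm4 of the replicative helicase at -0.05 ± 0.53 (SE), -0.29 ± 0.41 (SE) and -0.20 ± 0.44 (SE).

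Immediate early genes, which respond within minutes to stimulation, were higher at p under 0.05 in 7 of 21, with 0 lower. Nr4a1, an orphan nuclear receptor, lay at 15.3, 12.5 and 13.9 CPM and at 25.4, 25.5 and 221 CPM, and the controls at 25.2, 18.6 and 39.9 CPM. Its log2 fold change of 2.71 ± 0.83 (SE) (unadjusted p under 0.05, adjusted p = 0.622) was 0.87 without DXM 3. Nr4a2 and Nr4a3, its relatives, were likewise high in DXM 3 (2.95, 2.89 and 20.8 and 6.65, 1.98 and 32.6 CPM in DXM 1 to 3). Of the 21 genes, 4 were higher at p under 0.05 with the summed library or without DSS 2 and 1 without DXM 3. Klf4 was the lowest (-0.48 ± 0.26 (SE)).

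Clock genes showed a mixed order, with 6 of 19 higher and 1 lower at p under 0.05 (2 and 1 with the summed library and without DSS 1 or DSS 2, 4 and 0 without DSS 3, 4 and 1 without DXM 2, 6 and 2 without DXM 3, and 0 and 0 without DXM 1). Arntl and Clock, the positive arm, were at -0.24 ± 0.44 (SE) and 0.048 ± 0.26 (SE), and Npas2, its relative, at -0.079 ± 0.40 (SE). Ciart, a repressor, was highest (1.22 ± 0.54 (SE), unadjusted p under 0.05, adjusted p = 0.643) and Nfil3 lowest (-1.01 ± 0.63 (SE)). The hour at which each colon was taken is not given in the sources used here.

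Genes of the barrier and of the aryl hydrocarbon receptor, the subjects of the study, were read in the same way. Of 24 tight junction and adhesion genes, 3 were higher and 3 lower at p under 0.05. The count of higher genes was 1 with the summed library and without DSS 2, DSS 3 or DXM 1 and 0 without DXM 3, and that of lower genes was 7 without DXM 1 and 1 without DXM 3. Tjp1 (ZO-1) lay at 93.6, 93.6 and 84.8 CPM and at 129, 93.1 and 95.6 CPM (0.23 ± 0.21 (SE), adjusted p = 0.793). Ocln, occludin, lay at 66, 65.5 and 64.6 CPM and at 64.3, 47.9 and 42.6 CPM (-0.34 ± 0.22 (SE), adjusted p = 0.706), and Cldn4 at 96.4, 88.6 and 112 CPM and at 155, 46 and 32 CPM (-0.35 ± 0.50 (SE), adjusted p = 0.876), with DXM 1 above and DXM 2 and 3 below all DSS libraries. Cldn1 was highest (2.10 ± 0.71 (SE), at no more than 2.53 CPM) and Cldn15, which forms sodium pores, lowest (-1.15 ± 0.70 (SE)). Cldn1 had 8, 7 and 5 reads in DSS 1 to 3 and could not pass the filter on low counts through them alone. Ahr itself lay at 14.8, 17.4 and 16 CPM and at 15.6, 16.9 and 23.7 CPM (0.22 ± 0.21 (SE), adjusted p = 0.8). Its target Cyp1a1 lay at 6.18, 6.13 and 16.6 CPM and at 24.7, 142 and 54.8 CPM (2.94 ± 1.45 (SE), adjusted p = 0.66), above DSS in all 3, but controls alone ran from 0.0749 to 254 CPM.

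Neighbouring genes of the major histocompatibility complex, above all H2-T23 and H2-T22, had levels that fell into a high and a low set across the whole series. H2-T23 (Qa-1, a ligand of inhibitory receptors on killer cells, mm10 chr17:36029773-36032855) lay at 5.52, 4.55 and 8.34 CPM in DSS 1 to 3 and at 128, 162 and 71.6 CPM in DXM 1 to 3 (4.30 ± 1.32 (SE), unadjusted p under 0.05, adjusted p = 0.622). H2-T22 (chr17:36037128-36042747) lay at 2.92, 1.58 and 2.56 CPM and at 32.4, 47.8 and 24.1 CPM (3.88 ± 1.07 (SE), unadjusted p under 0.05, adjusted p = 0.622). These were the 2 genes with an adjusted p under 0.05 in the fit on the 6 libraries alone. The controls lay at 8.39, 283 and 6.7 CPM of H2-T23 and the Rhy+DSS libraries at 13.4, 142 and 98.8 CPM, so that control 2 exceeded every DXM+DSS library and the high level was also seen in libraries without DXM. H2-T24, just beside them, lay at 1.82, 0.728 and 1.13 CPM and at 3.84, 3.9 and 2.33 CPM, with control 2 at 12.6 CPM (1.44 ± 0.89 (SE)). Gm8909, farther along, was also higher with DXM (2.89 ± 1.29 (SE)), at no more than 2.47 CPM in these 6 libraries. H2-T3 and H2-T10 of the same stretch went the other way (-1.26 ± 0.71 (SE) and -0.77 ± 0.51 (SE)). H2-D1, a classical class I gene of the same complex, lay at 1850.0, 1819 and 2219.9 CPM and at 1772, 1567 and 1645 CPM (-0.24 ± 0.29 (SE)). H2-T genes are close copies of each other, so how reads divide among them is uncertain, and the cause of the split was not tested.

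**Figure D5:**
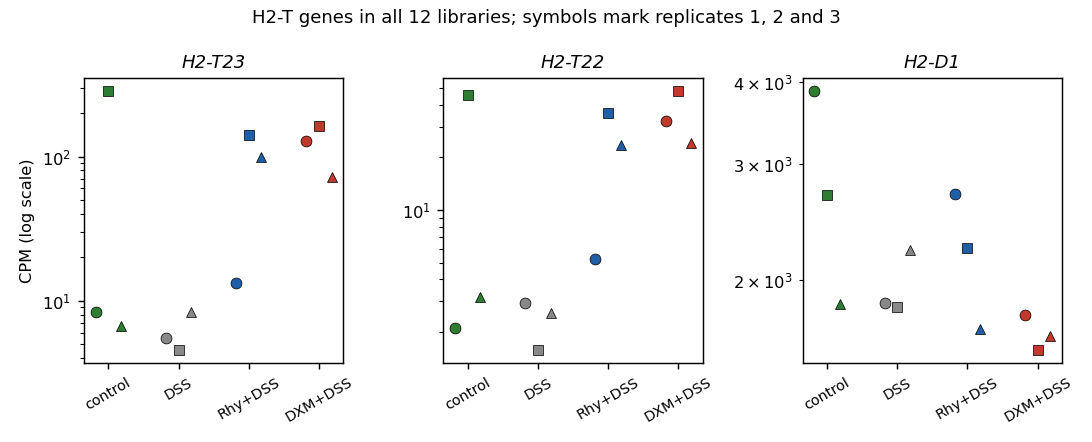
Levels in CPM on a log scale of H2-T23, H2-T22 and H2-D1 in all 12 libraries by group, with circle, square and triangle for replicates 1, 2 and 3. H2-T23 and H2-T22 are low in the 3 DSS libraries, controls 1 and 3 and Rhy+DSS 1 and high in the other 6, whereas H2-D1 shows no such gap.

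Genes of position along the colon and of attached tissue were also compared. Of 9 posterior Hox genes 8 passed the filter, with a median of 0.47 that was 0.26 without DSS 3 and 0.22 with the Hoxb13 term, and 0 at p under 0.05. Of 27 anterior and middle Hox genes 19 passed, 16 of them below 0 (median -0.59, 7 of them entirely below and 1 at p under 0.05, also with the summed library). Hoxa2 and Hoxa3 were at 0.47 ± 0.43 (SE) and -0.47 ± 0.39 (SE), Hoxb8 lowest (-2.32 ± 1.43 (SE)). Hoxb9, the gene with that p, lay at 64.4, 66.8 and 77.1 CPM and at 28.9, 31.3 and 30.7 CPM (-1.20 ± 0.40 (SE), unadjusted p under 0.05, adjusted p = 0.622), -1.10 without DSS 3. The place along the colon from which each piece was taken is not given in the sources used here, so position and treatment cannot be told apart. Adding a term for low Hoxb13 left medians of 0.83 for collagens, 1.07 for fibroblasts, 0.54 for smooth muscle and -0.54 for drug metabolism. Fat cell genes marked DSS 3: Adipoq, the hormone of fat cells, lay at 0, 0.0607 and 11.6 CPM in DSS and 0.754, 2.84 and 1.22 CPM in DXM+DSS. Their median of -1.25 turned to 1.93 without that library. The part of position and of attached tissue in the stromal and epithelial differences was not tested further.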

How the data were processed

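RNA of 12 mouse colon samples was sequenced on a HiSeq X10. The authors deposited raw counts per gene and FPKM values, made on mm10. The submitters' processing notes name HISAT2 2.0.5, featureCounts 1.5.0-p3 and DESeq2 1.16.1; the strand setting is not given in the sources used here, so overlapping and antisense genes are uncertain. Of 54532 genes in the count table, 24548 had no count. Groups were taken from the treatment labels. Counts were fitted with edgeR 4.0.16 (R 4.3.3), quasi-likelihood test on all 12 libraries with TMM scaling and filterByExpr (minimum count 10), and the contrast DXM+DSS minus DSS was adjusted by Benjamini-Hochberg. CPM were computed from the totals of the genes that passed the filter, multiplied by the TMM factors. Log2 fold changes carry a standard error (SE), and n is 3 libraries a group. No exact permutation test of 3 against 3 libraries can go below p = 0.1. Alternatives used DESeq2 1.42.0 and limma 3.58.1, the latter on log2(FPKM + 1) and log2(FPKM + 0.1), where fold changes of low genes are understated. Statistics were tested on simulated data.

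The members and the 52 gene lists were chosen with earlier results of these data known. Genes named were a fixed set, the 12 highest and 12 lowest protein-coding genes with unadjusted p under 0.05, at least 3 CPM on average, groups that do not overlap and one direction with DSS 1 and DSS 2 summed and with each library left out (immunoglobulin, T cell receptor and predicted genes left out), and the extreme and up to 3 defining members of each list. Others (among them Reg3b, Duox2, Nr4a2, Nr4a3, Hoxb9, H2-D1, Atp1b1, Scnn1a and Il22) were chosen after their values were seen. A few genes that the rule covers are not reported here. In the lists, 4 symbols were matched under an older name.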

Additional observations from a re-analysis of the deposited data

How the results depend on the processing

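The number of genes with an unadjusted p under 0.05 (1300) was 736 with DSS 1 and DSS 2 summed, 2514 on the 6 libraries alone, 2644 with DESeq2 on those 6, and 537 to 1594 with each library left out, lowest without DXM 3; the number was 775 and 771 without DSS 1 or DSS 2. The share of these that were higher, 63.6%, was 52.3% without DXM 1. The number with an adjusted p under 0.05 (0) was 2 on the 6 libraries alone, 53 with DESeq2 on all libraries, 589 with DESeq2 on the 6, 2 with limma on log2(FPKM + 0.1), and 172 with DESeq2 after summing DSS 1 and DSS 2, an alternative added after seeing the data, as was leaving out mitochondrial genes (1320 genes, 72.3% higher). The cause was not tested.

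Replicate numbers did not pair the libraries: deviations of same-numbered libraries correlated at -0.0146, -0.0892 and -0.139, and with the replicate number as a block 1244 genes had an unadjusted p under 0.05 and 0 an adjusted one. Directions reversed in Cldn4, Hsd11b2, Muc2, Sgk1 and Tnf. With each library left out, Cldn4 ran from -1.34 to 0.024, Hsd11b2 from -0.030 to 0.42, Muc2 from -0.96 to 0.66 and Sgk1 from -0.50 to 0.0040, the positive ends of Cldn4 and Sgk1 coming without DXM 3 and that of Muc2 without DSS 3. Hsd11b2 was -0.022 in edgeR and -0.019 in DESeq2 with DSS 1 and DSS 2 summed. Muc2 was 0.043 with the replicate block and 0.49 with the Hoxb13 term, and Tnf -0.081 with the Hoxb13 term. With 3 libraries a group, 2 of them nearly identical in DSS, the standard errors of single genes, often near the size of the difference, limit what each can show.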

Other observations

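In the cholesterol synthesis list 2 of 19 genes were higher at an unadjusted p under 0.05 (1 with DSS 1 and DSS 2 summed and without any 1 DSS library or DXM 2, 0 without DXM 3 and 7 without DXM 1), led by Insig1, which holds back sterol synthesis (1.22 ± 0.41 (SE)). Enteric neuron genes had a median of -0.22 with 2 of 17 lower, Gal (galanin) at -1.49 ± 0.59 (SE) and Nos1 at -1.03 ± 0.46 (SE), and 0 with DSS 1 and DSS 2 summed and without DSS 1, DSS 2 or DXM 3. Enteric glia and interstitial cells of Cajal had medians of 0.29 and 0.31, with 0 genes at that p. Of 15 mast cell and eosinophil genes 10 passed the filter on low counts, with 0 at that p. Heat shock genes had a median of 0.24, -0.077 without DXM 3, with Hspb1, a small heat shock protein, higher (1.15 ± 0.48 (SE)). The antimicrobial list held Pla2g2a, a secreted phospholipase, at 3.78 ± 1.54 (SE) with 3.03, 3.34 and 3.51 CPM in DSS 1 to 3 and 5.76, 46.1 and 83.9 CPM in DXM 1 to 3.

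Over the members that passed the filter, tuft cell genes had a median of -0.11 (0.043 without DXM 2), crypt base genes of 0.078 (-0.033 without DXM 3), anion transport genes of 0.19 (-0.072 and -0.079 with limma on FPKM) and MHC class II genes of -0.23 (0.28 without DSS 3). Plasma cell genes had a median of 0.21, mitochondrially encoded genes of 0.26 (-0.73 without DXM 1, -0.030 with the replicate block and -0.0026 with limma on FPKM), transmembrane mucins of 0.20, mesothelial genes of -0.093, squamous epithelial genes of 0.46, skeletal muscle genes of 0.27 (-0.080 with the Hoxb13 term) and AhR target genes of 0.034 (-0.075 with the Hoxb13 term, -0.059 without DSS 1 and -0.14 without DXM 1).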
